A study of Zea mays with 6 samples.

Results

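The circadian clock genes described here are 7 genes of the maize leaf, taken by identifier from the 45953 features of the count table. The selection named Zm00001d049543 as CCA1, Zm00001d024546 as LHY, Zm00001d047761 as PRR73, Zm00001d017241 as TOC1a, Zm00001d051114 as TOC1b, Zm00001d008826 as gi1 and Zm00001d039589 as gi2. Neither the count table nor the gene table used here pairs these identifiers with names, so the names rest on the selection alone and were not checked. All 7 passed the filter on low counts, which left 21206 features for testing. The members and the comparisons were chosen with earlier results of these libraries known.

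Poly(A)-selected leaf RNA of maize seedlings, aged 2 weeks, was sequenced from a genome-edited ZmPP2C45 knockout in the KN5585 background (PP2CKO, n = 3) and from the unedited inbred line KN5585 (WT, n = 3). ZmPP2C45 belongs to the protein phosphatases 2C. Nothing in the labels tells whether a library is a plant or a pool, and the p-values therefore reflect how far these libraries vary, which may be technical variation. The hour of harvest is not given in the sources used here, and if the lines were harvested at different hours, hour and genotype cannot be told apart. The comparison asks whether the clock transcripts differ between the lines, and whether the balance of morning and evening transcripts differs among the 6 libraries.

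The plant circadian clock is a set of transcription factors that repress one another in turn through the day. In Arabidopsis, where these roles were worked out, the MYB factors CCA1 and LHY accumulate around dawn and repress evening genes. Pseudo-response regulators such as PRR7, the relative of PRR73, follow during the day and repress CCA1 and LHY. TOC1, another pseudo-response regulator, and GIGANTEA, a large protein that stabilises light-sensing F-box proteins, accumulate later in the day. Because these transcripts cycle strongly, the balance of morning over evening transcripts is high around dawn and low around dusk, and it moves with the hour at which leaves are taken. Levels below are CPM, counts scaled to a common library size, after scaling by trimmed mean of M values (TMM). They are not corrected for gene length, so they are compared between libraries for one gene and not between genes.

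Library totals ran from 16314657 to 20502449 counts in PP2CKO and from 15923668 to 16368195 counts in WT. The TMM factors ran from 0.869 to 0.982 in PP2CKO and from 0.995 to 1.15 in WT, so the direction of small differences depends on the scaling. With library size alone, the median over the tested features shifted by -0.22 on the log2 scale. PP2CKO 3 stood nearest to WT among the knockout libraries. Its log2 CPM correlated across genes at a mean of 0.957 with the other PP2CKO libraries and 0.949 with the WT libraries. The same means were 0.953 and 0.932 for PP2CKO 1, and 0.955 and 0.926 for PP2CKO 2. Results are therefore given with and without PP2CKO 3. This library was singled out from the same data, and its mean correlation with its own line was the highest of the knockout libraries. Where it lay nearest to WT, leaving it out had to widen the difference, so calls made without it only describe.

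None of the 7 clock genes passed the test between the lines (edgeR quasi-likelihood F test with an adjusted p below 0.05, Benjamini-Hochberg over the whole table), while 7.23% of all tested features did, 5.15% higher and 2.08% lower in PP2CKO. At an unadjusted p below 0.05, edgeR placed CCA1 and PRR73 higher in PP2CKO, which is 2 of 7 members against 23.2% of tested features, 13.2% of them higher. DESeq2 called the same 2 genes at an adjusted p below 0.05, against 9.63% of the features to which it gave an adjusted p. limma voom called 0 of 7, against 5.73%. The fitted log2 fold changes were positive for the 3 morning and day genes and negative for the 4 evening genes, with a range of -0.84 to 0.62. The median absolute log2 fold change was 0.25 for the members and 0.30 for all tested features. These sets were not matched for expression, so the medians do not show how the members rank among features of like level. Only 0.5% to 3.37% of tested features had a higher mean CPM than gi1, PRR73, gi2 and CCA1. The libraries of the lines did not overlap for 1 member, PRR73, against 28.2% of tested features (14.8% with PP2CKO higher, as for PRR73).

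**Figure D1:**
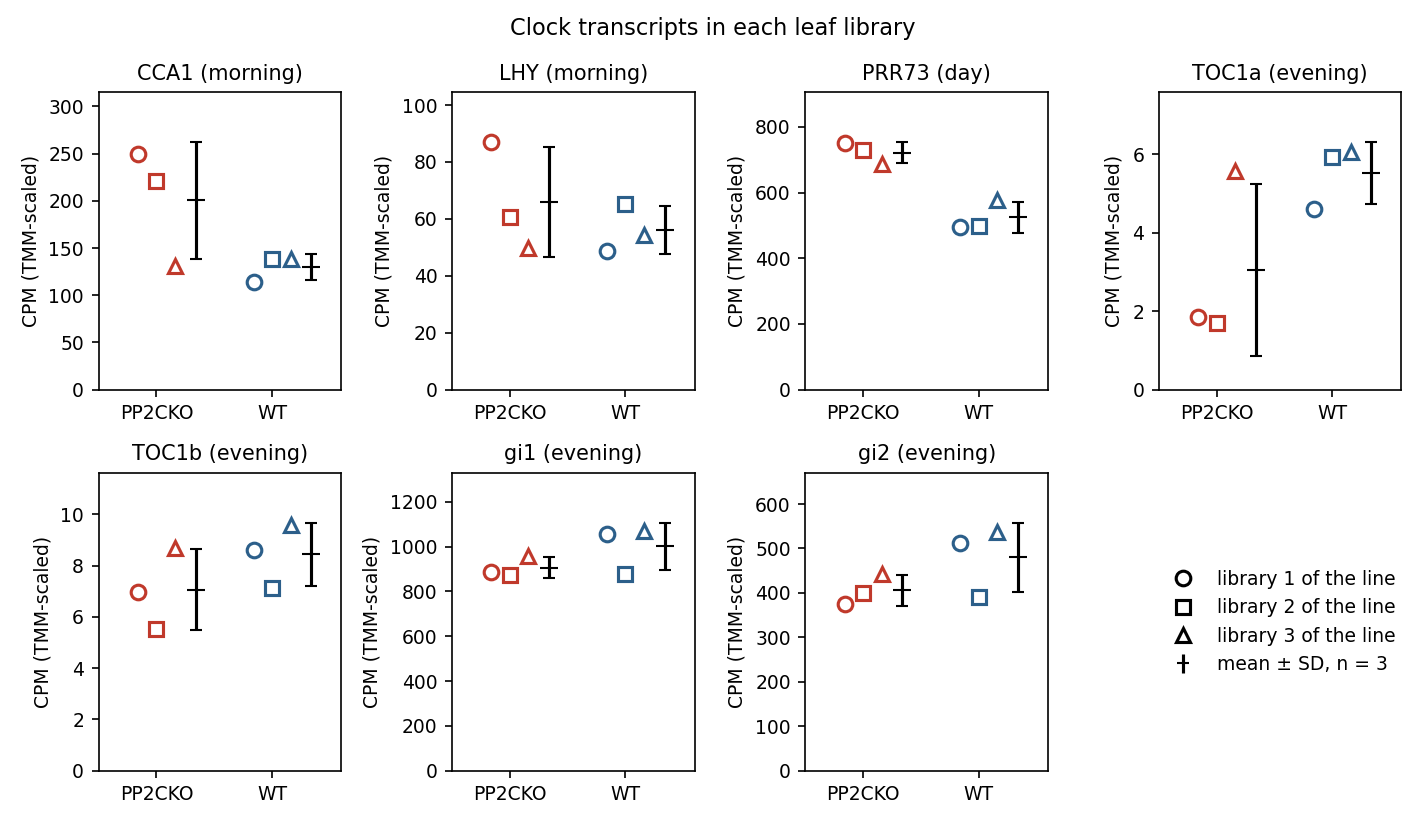
TMM-scaled CPM of each clock gene (vertical axes, starting at 0) in PP2CKO and WT libraries, with open symbols for libraries 1, 2 and 3 of each line and bars for the mean ± SD (n = 3). PP2CKO 3 lies at 131 CPM for CCA1 and 5.57 CPM for TOC1a, among the WT libraries, while PP2CKO 1 and 2 lie apart from them.

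CCA1, one of the morning MYB factors, had 250 and 221 CPM in PP2CKO 1 and 2 and 131 CPM in PP2CKO 3, against 115, 138 and 138 CPM in the WT libraries. PP2CKO 1 and 2 were thus above every WT library, and PP2CKO 3 lay inside the WT range. Its mean was 201 ± 62.0 CPM over the PP2CKO libraries and 130 ± 13.7 CPM over the WT libraries (SD, n = 3 each). CCA1 had a fitted ratio of 1.54 between PP2CKO and WT, with a 95% interval of 1.12 to 2.12, and missed the threshold after adjustment (edgeR adjusted p = 0.0994). DESeq2 gave an adjusted p of 0.0376. Without PP2CKO 3, which leaves 2 knockout libraries against 3 of WT, the fitted ratio was 1.81, a log2 fold change of 0.85, and passed (edgeR adjusted p = 0.015). PP2CKO 3 was the knockout library nearest to WT at CCA1, so leaving it out had to widen the difference. The log2 fold change, 0.62 over all libraries, was 0.43 without PP2CKO 1 (edgeR adjusted p = 0.281) and 0.55 without PP2CKO 2 (edgeR adjusted p = 0.233). In bulk leaf RNA, a change in transcript per cell and a change in the number of cells that hold it cannot be told apart, here or for the genes below.

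LHY, the partner of CCA1, had 87.2, 60.7 and 49.8 CPM in PP2CKO 1, 2 and 3, against 48.8, 65.2 and 54.2 CPM in the WT libraries. Only PP2CKO 1 lay outside the WT range. The log2 fold change of LHY was 0.23 ± 0.20 (SE), with a 95% interval of -0.21 to 0.67 (edgeR adjusted p = 0.53). Its direction depended on that library, since without PP2CKO 1 the value was -0.023 (edgeR adjusted p = 0.964), and with library size alone it was -0.0075.

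PRR73, the day-phased pseudo-response regulator, was the member with separated lines. It had 751, 729 and 685 CPM in PP2CKO 1, 2 and 3, against 496, 498 and 578 CPM in the WT libraries. The lowest knockout library was above the highest WT library, and PP2CKO 3 stood with the other knockout libraries. Its mean was 722 ± 33.3 CPM over the PP2CKO libraries and 524 ± 46.4 CPM over the WT libraries (SD, n = 3 each). The log2 fold change was 0.46 ± 0.15 (SE), a ratio of 1.38 with a 95% interval of 1.10 to 1.73. PRR73 missed the threshold in edgeR (adjusted p = 0.0868) and limma voom (adjusted p = 0.08) and passed it in DESeq2 (adjusted p = 0.0132). Leaving out PP2CKO 3 left the log2 fold change at 0.50 (edgeR adjusted p = 0.121). With library size alone the lines overlapped, at 651, 680 and 672 CPM in PP2CKO and 493, 544 and 665 CPM in WT, and the log2 fold change was 0.24 (edgeR adjusted p = 0.293).

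Among the evening genes, TOC1a varied most between libraries. TOC1 is the evening repressor that acts back on the morning genes in Arabidopsis. TOC1a had 1.86 and 1.71 CPM in PP2CKO 1 and 2 and 5.57 CPM in PP2CKO 3, against 4.61, 5.93 and 6.05 CPM in the WT libraries. PP2CKO 1 and 2 were below every WT library, and PP2CKO 3 was inside the WT range. These levels rest on few reads, with 29, 26 and 112 counts in PP2CKO and 75, 103 and 111 counts in WT. The exact 95% Poisson intervals were 1.25 to 2.67 CPM for PP2CKO 1, 1.11 to 2.50 CPM for PP2CKO 2 and 4.59 to 6.70 CPM for PP2CKO 3. The gap inside the knockout line is therefore larger than counting error, which is all that these intervals cover. The log2 fold change was -0.84 ± 0.43 (SE), with a 95% interval of -1.77 to 0.08 (edgeR adjusted p = 0.26). Without PP2CKO 3, the knockout library nearest to WT, the log2 fold change was -1.63 ± 0.37 (SE) and passed the threshold (edgeR adjusted p = 0.0228). Without PP2CKO 1 it was -0.59 (edgeR adjusted p = 0.489), and without PP2CKO 2 it was -0.56 (edgeR adjusted p = 0.518).

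TOC1b, the other TOC1 gene, had 6.99, 5.51 and 8.70 CPM in PP2CKO 1, 2 and 3, against 8.60, 7.13 and 9.595 CPM in the WT libraries. PP2CKO 1 and 2 were again below every WT library, and PP2CKO 3 was inside the WT range, but the distances were smaller. The exact 95% Poisson intervals of PP2CKO 1, 5.74 to 8.43 CPM, and WT 2, 5.93 to 8.51 CPM, overlapped, so counting error alone covers that gap. For TOC1b, with 84 to 175 counts in PP2CKO and 124 to 176 counts in WT, the log2 fold change was -0.25 ± 0.25 (SE), with a 95% interval of -0.79 to 0.29 (edgeR adjusted p = 0.584). Without PP2CKO 3 it was -0.43 (edgeR adjusted p = 0.379).

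The GIGANTEA genes gi1 and gi2 rest on at least 5832 counts in every library and still did not separate the lines after TMM scaling. gi1 had 885, 873 and 960 CPM in PP2CKO 1, 2 and 3, against 1055, 879 and 1069 CPM in the WT libraries. gi2 had 374, 400 and 443 CPM in PP2CKO 1, 2 and 3, against 511, 390 and 537 CPM in the WT libraries. For both genes WT 2 lay among the knockout libraries, and PP2CKO 3 was the highest of its line. The log2 fold change of gi1 was -0.14, with a 95% interval of -0.49 to 0.20 (edgeR adjusted p = 0.629). That of gi2 was -0.24, with a 95% interval of -0.60 to 0.12 (edgeR adjusted p = 0.416). Library size alone separated the lines for gi1, at 768, 815 and 941 CPM in PP2CKO and 1049, 959 and 1231 CPM in WT, but 33.7% of tested features did not overlap on that scale. It gave gi1 a log2 fold change of -0.36 (edgeR adjusted p = 0.114).

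**Figure D2:**
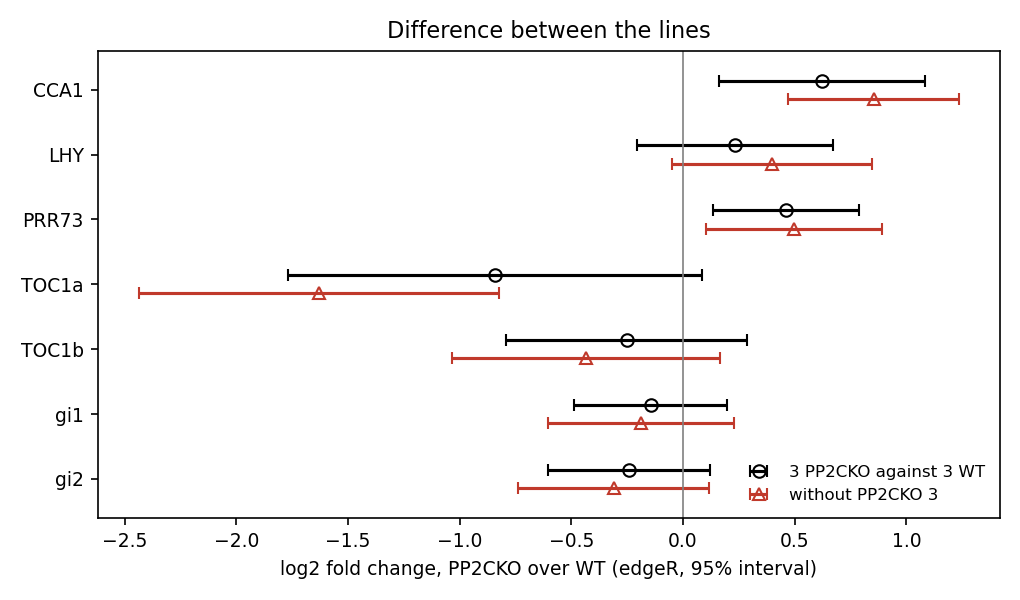
Log2 fold change of PP2CKO over WT for each clock gene, from edgeR with 95% intervals, over all 6 libraries (black circles) and without PP2CKO 3 (red triangles). The intervals over all libraries lie above 0 for CCA1 and PRR73 before adjustment, and leaving out PP2CKO 3 moves TOC1a from -0.84 to -1.63.

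In PP2CKO 1 and 2, but not in PP2CKO 3, the sign of the deviation from WT followed the phase of the gene. Relative to the mean of the WT libraries, PP2CKO 1 was higher by 0.94 for CCA1, 0.65 for LHY and 0.52 for PRR73 in log2 CPM. In the same library TOC1a was at -1.50, TOC1b at -0.26, gi1 at -0.17 and gi2 at -0.35. PP2CKO 2 had the same signs for all 7 genes, with 0.77 for CCA1 and -1.62 for TOC1a at the extremes. Some of these deviations were no larger than those of WT 2. They were LHY (0.12) and gi2 (-0.25) in PP2CKO 2 and gi1 (-0.17) in PP2CKO 1. WT 2 was at 0.23, -0.28 and -0.18 for the same genes. In PP2CKO 3 the deviations of the other 6 genes lay between -0.16 and 0.05, and that of PRR73 was 0.39.

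**Figure D3:**
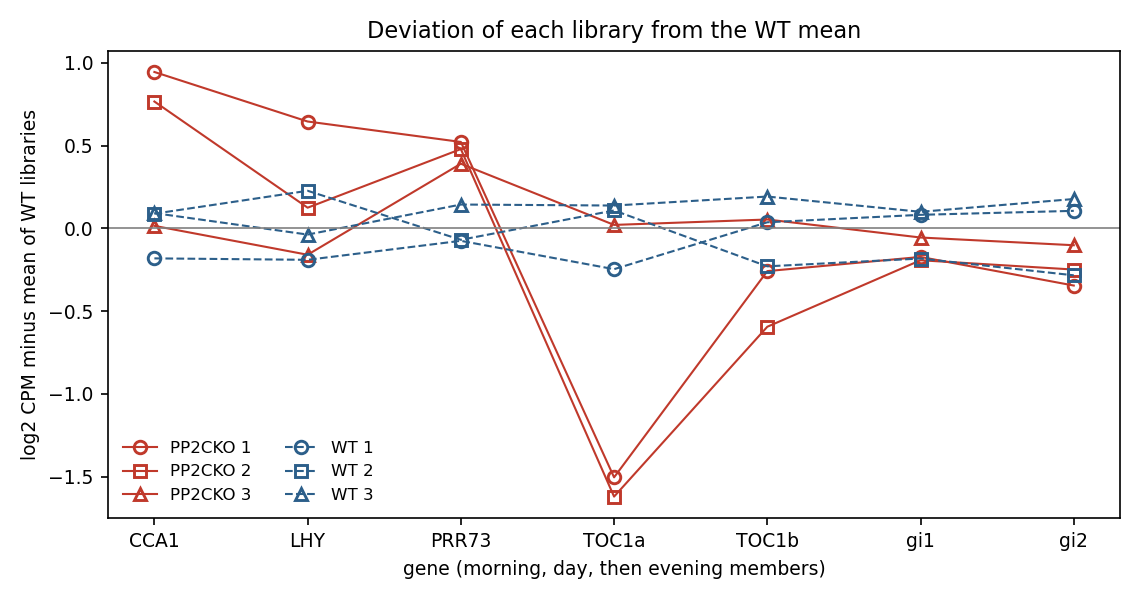
Log2 CPM of each library minus the mean of the WT libraries (vertical axis) for the morning, day and evening genes in order, with PP2CKO libraries in red and WT libraries in blue. PP2CKO 1 and 2 run from positive values at CCA1 (0.94 and 0.77) to negative values at TOC1a (-1.50 and -1.62), while PP2CKO 3 follows the WT libraries except at PRR73 (0.39).

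The mean log2 CPM of the 4 evening genes minus that of CCA1 and LHY gave a single evening-minus-morning value per library. It was -1.67, -1.41 and -0.25 in PP2CKO 1, 2 and 3, against -0.12, -0.61 and -0.18 in WT 1, 2 and 3. A lower value means more morning transcript relative to evening transcript than in another library. Differences between genes of unequal length cancel only between libraries, so the sign of a single value carries no meaning. PP2CKO 1 and 2 had the lowest values of all libraries, and PP2CKO 3 fell inside the WT range. The line means were -1.11 ± 0.75 for PP2CKO and -0.30 ± 0.27 for WT (SD, n = 3 each), a difference of -0.81. The spread inside the knockout, 1.42 from its lowest to its highest library, was larger than this difference. In WT the spread was 0.48. Without PP2CKO 3 the difference was -1.24.

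Count ratios within a library do not depend on how libraries are scaled. Each of the 3 morning or day genes was set over each of the 4 evening genes, which gave 12 ratios that share members and are not independent. The geometric mean of every ratio was higher in PP2CKO than in WT, by 1.27 to 3.14 times. That direction follows from the signs of the fitted changes given above and adds no further evidence. In 10 of the 12, PP2CKO 1 and 2 were above every WT library. The exceptions were LHY over gi1 and LHY over gi2, for which PP2CKO 2 lay below WT 2. The widest split was CCA1 over TOC1a, with ratios of 134, 130 and 23.6 in PP2CKO 1, 2 and 3, against 24.9, 23.3 and 22.9 in WT 1, 2 and 3. The WT libraries and PP2CKO 3 were close together in this ratio, and PP2CKO 1 and 2 were far above them.

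PP2CKO 3 was above every WT library in 4 ratios, all of them with PRR73 as numerator. PRR73 over gi1 was 0.849, 0.835 and 0.714 in PP2CKO 1, 2 and 3, against 0.470, 0.567 and 0.540 in WT 1, 2 and 3. PRR73 over gi2 was 2.01, 1.82 and 1.55 in PP2CKO, against 0.970, 1.28 and 1.07 in WT. These 4 ratios were the ones in which the lines did not overlap, so the separation of PRR73 from the evening genes held in all 3 knockout libraries without any scaling. The smallest of these separations was PRR73 over TOC1b, with 78.7 in PP2CKO 3 and 69.9 in WT 2. The ratios were computed after the levels had been seen and were not tested. How often ratios of other gene pairs separate the lines was not counted, so no count of ratios here can be called uncommon. Of single tested features, 28.2% did not overlap after TMM scaling and 33.7% did not with library size alone.

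**Figure D4:**
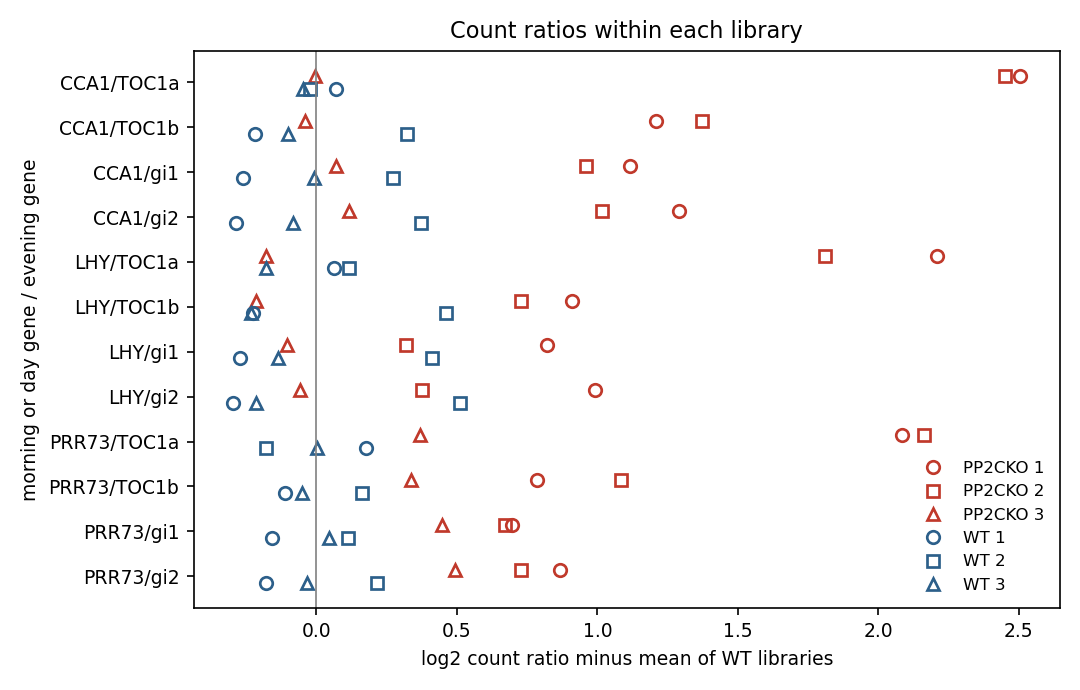
Log2 of the count ratio of each morning or day gene over each evening gene, minus the mean of the WT libraries (horizontal axis), with PP2CKO libraries in red above WT libraries in blue for each ratio. PP2CKO 1 and 2 reach 2.51 and 2.45 for CCA1 over TOC1a, and PP2CKO 3 lies to the right of all WT libraries only in the 4 ratios with PRR73.

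Among features that passed the test without PP2CKO 3, few had PP2CKO 3 inside the WT range, as CCA1 and TOC1a did. Fitted without PP2CKO 3, edgeR called 7.16% of 21656 features, 5.27% higher and 1.89% lower in PP2CKO. Of the called features, 1527 were also in the test of all 6 libraries. At these, PP2CKO 3, which had no part in that fit, lay beyond every WT library on the side of PP2CKO 1 and 2 in 89.7%. It lay inside the WT range in 8.91%, CCA1 and TOC1a among them. Over all 21206 tested features, 5.09% had PP2CKO 1 and 2 below every WT library with PP2CKO 3 inside the WT range, as TOC1a and TOC1b did. A further 4.81% had the reverse order, as CCA1 did. Beside these, 28.2% of tested features had all 3 knockout libraries beyond every WT library on the same side. By order alone, with no threshold on p, the position of PP2CKO 3 was therefore less uncommon than among the called features. TOC1a was 3.0 times as high in PP2CKO 3 as in the geometric mean of PP2CKO 1 and 2, and 2.15% of tested features showed a larger difference in either direction. For CCA1 the same comparison gave 0.559, and 9.99% of tested features differed more. The other 5 members were less unusual: a larger difference was seen in 21% of tested features for LHY, 25.2% for TOC1b, 59.1% for gi2, 72% for gi1 and 75.5% for PRR73.

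In WT the libraries were nearer together than in PP2CKO for CCA1, LHY, TOC1a and TOC1b, and farther apart for PRR73, gi1 and gi2. The SD of log2 CPM was 0.07 in PP2CKO and 0.12 in WT for PRR73, 0.07 in PP2CKO and 0.16 in WT for gi1, and 0.12 in PP2CKO and 0.25 in WT for gi2 (n = 3 each). WT 2 had the highest LHY level of its line and the lowest levels of TOC1b, gi1 and gi2, which gave it the lowest evening-minus-morning value in WT. TOC1a did not follow this order, with 5.93 CPM in WT 2 and 4.61 CPM in WT 1. WT 3 was highest of its line for 6 of the 7 genes, CCA1 and every evening gene included, and was the highest in 32.1% of all tested features. The median within-line SD of log2 CPM in PP2CKO was 0.32 for the members and 0.25 for all tested features. In WT it was 0.21 for the members and 0.25 for all tested features. For PRR73 and gi1, 95.7% and 91.7% of tested features had a larger within-line SD, and for TOC1a the share was 11.5%. These shares were not matched for expression. Only 0.783% and 0.5% of tested features had a higher mean CPM than PRR73 and gi1, against 73.6% for TOC1a. They do not show how steady the members are among features of like level.

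The genes come in related pairs, and the share of each pair's counts taken by one member was compared between libraries. Reads of near-identical stretches may have been assigned to either member, so these shares are uncertain. CCA1 took 74.2%, 78.4% and 72.5% of the CCA1 and LHY counts in PP2CKO 1, 2 and 3, against 70.1%, 67.9% and 71.9% in WT 1, 2 and 3. The lines did not overlap, but PP2CKO 3 and WT 3 lay within each other's exact 95% binomial intervals, 71.0 to 73.9% and 70.3 to 73.3%. How often the shares of other gene pairs separate the lines was not counted, so this cannot be called uncommon. TOC1a took 21.0%, 23.6% and 39.0% of the TOC1 counts in PP2CKO, against 34.9%, 45.4% and 38.7% in WT, so TOC1a made up less of the TOC1 counts in PP2CKO 1 and 2 than in the other libraries. The interval of PP2CKO 2, 16.1 to 32.7%, and that of WT 1, 28.5 to 41.7%, met. The gi1 share was nearly constant, at 69.1% ± 1.03 for PP2CKO and 67.7% ± 1.38 for WT (SD, n = 3 each).

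Other features with the same pattern over the 6 libraries are given by identifier, since no names are paired with them. Among 1029 features with a mean of at least 10 CPM and an SD of log2 CPM of at least 0.5, 19 had a Pearson correlation above 0.9 with the evening-minus-morning value and 49 had one below -0.9. These features share libraries and scaling with the clock genes, and with 6 libraries the correlations only describe. The highest were Zm00001d038807 (r = 0.98) and Zm00001d008865 (r = 0.97). Zm00001d038807 had 7.38, 8.99 and 17.2 CPM in PP2CKO 1, 2 and 3, against 18.4, 15.5 and 15.8 CPM in WT. The lowest were Zm00001d032933 (r = -0.99) and Zm00001d047847 (r = -0.98). Zm00001d032933 had 46.0, 39.1 and 23.8 CPM in PP2CKO, against 19.5, 26.2 and 20.6 CPM in WT. Between the lines, the edgeR adjusted p of the 4 features ran from 0.0796 to 0.249.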

How the data were processed

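The authors deposited raw counts per gene for 6 leaf libraries, not normalized. Per the labels' protocols, reads were filtered and aligned to B73 v4 with STAR 2.4.0j. How reads were counted, on which annotation and with what strandedness, is not given in the sources used here. Reads of near-identical or overlapping genes may therefore be assigned together. Both lines were aligned to another inbred's genome. The gene table used here (assembly NAM 5.0) matched 0 of the 7 members, so other clock genes, gene lengths, leaf markers, the transcript of ZmPP2C45 and sequences were not analysed here.

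Counts were tested in R 4.3.3 with the quasi-likelihood test of edgeR 4.0.16, genotype as the only term, TMM scaling, filterByExpr (minimum count 10, minimum total 15) and Benjamini-Hochberg adjustment over 21206 features. SE is the log2 fold change over the square root of its F. Log2 CPM used a prior count of 2. No library duplicated another: the chi-square per degree of freedom was 19.1 to 26.1 within lines. On simulated counts of this comparison, 38.4% of 2-fold and 85.0% of 4-fold changes were called (20836 features run). The changes were set in 99 and 100 features drawn at random over all expression levels, with 20637 unchanged. Fewer features were changed than were called in the real data, so these rates are not those of the members. DESeq2 1.42.0 and limma 3.58.1 served as alternatives. Members and lists were chosen with earlier results of these data known. The rule for named genes took every member, any other clock gene that the gene table ties to a row (0 found), and the 2 features most positively and the 2 most negatively correlated with the evening-minus-morning value.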

Additional observations from a re-analysis of the deposited data

How the results depend on the processing

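Of 105 combinations of member and alternative, 103 kept the direction of the log2 fold change. LHY turned to -0.0075 with library size alone, where the scaling shifts all features, and to -0.023 without PP2CKO replicate 1 (range to 0.40 with other libraries left out); the cause was not tested. Members called higher, 0 at first, were 1 without a low-count filter (CCA1, edgeR adjusted p = 0.0233). The share of all features called without that filter was not computed. DESeq2 called 2 members higher, against 9.63% of features in either direction. Members called with 1 library left out were 0 to 1 higher and 0 to 1 lower. The calls came without PP2CKO replicate 3, against 5.27% of features higher and 1.89% lower. A replicate block called 1 member, PRR73 (edgeR adjusted p = 0.0381), and 1323 higher and 537 lower features of the 21206 tested. Deviations from the line mean correlated weakly between libraries with equal numbers, at 0.0525, 0.0888 and 0.0847, and each library correlated best with its own number. Libraries with unequal numbers had correlations of -0.0705 to -0.00985. Deviations within a line sum to 0, so these values are not independent of the former. The labels state no pairing and the main test used none, and whether equal numbers mark a shared batch was not tested. Over all features, 1092 were called higher and 442 lower. These counts were 680 and 1604 with library size alone, 1672 and 781 with no low-count filter, 326 and 68 at an adjusted p below 0.01, 1530 and 692 with DESeq2, and on leaving out 1 library 339 to 1141 and 116 to 409. The evening-minus-morning difference of -0.81 ran from -1.24 to -0.53 with 1 library left out, and from -1.04 (TOC1 genes alone) to -0.58 (gi genes alone) over the other choices. At this depth 2-fold changes were called in 38.4% of simulated cases, so the lack of a call does not show equal levels; TOC1a, with 26 to 112 counts, is the least precise.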
